A study of Mus musculus with 5 samples.

Results

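The cells described here are skin fibroblasts that carry RNA for Cxcl13 or Thbs4, found by droplet single-cell RNA sequencing of mouse skin. They were chosen by marker values in each barcode. A barcode was kept if it held at least 200 detected genes and at most 10% mitochondrial UMIs (unique molecular identifiers, each standing for one captured RNA molecule). It was called a fibroblast if Col1a1, Col1a2 and Col3a1 together reached 50 UMIs per 10000, Krt5 and Krt14 together stayed under 50 per 10000 and Rgs5 had fewer than 3 UMIs. A fibroblast was a member if Cthrc1 was under 5 per 10000 and Cxcl13 plus Thbs4 reached 5 per 10000. There were 331 members among 8113 fibroblasts, and 26845 of 27317 deposited barcodes passed the first filter. The members were set against 6737 other fibroblasts of the same libraries that were also low in Cthrc1, called other Cthrc1-low fibroblasts below, and against 1045 Cthrc1-high fibroblasts. The samples were 3 wounded and 2 un-wounded skin libraries of C57BL/6 mice, all built from live cells sorted from the whole tissue. Wounded mice received 6-mm punch wounds at 7 weeks of age, and the wound with its surrounding skin was taken with a 10-mm punch 4 days later; the labels give no age for the un-wounded mice. They also do not say that each library came from a separate animal, so the spread between libraries, and every p-value built on it, may be partly technical.

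Cxcl13 is a chemokine best known from lymphoid follicles, where stromal cells secrete it and B cells and follicular helper T cells follow it through their receptor Cxcr5. Thbs4 is a thrombospondin, a secreted matricellular protein that binds collagen and other matrix proteins and is abundant in tendon and at muscle attachments. C3 is the central protein of the complement cascade and is made by many fibroblasts beside the liver. Fibroblasts of skin differ by depth: papillary cells lie under the epidermis, reticular cells below them, and Pi16 and Dpp4 mark fibroblasts of the fascia and of the adventitia around vessels.

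In GRCm38 (GENCODE M21 annotation) Cxcl13 lies at chr5:95956951-95961068 on the plus strand and Thbs4 at chr13:92751590-92794818 on the minus strand. Their promoters are shown because the presence of these RNAs defines the cells. They are RefSeq sequences of GRCm38.p6, from chr5:95956689-95956988 (plus strand) and chr13:92794769-92795068 (minus strand), and capitals mark the TATA box motif TATAAA.
Cxcl13: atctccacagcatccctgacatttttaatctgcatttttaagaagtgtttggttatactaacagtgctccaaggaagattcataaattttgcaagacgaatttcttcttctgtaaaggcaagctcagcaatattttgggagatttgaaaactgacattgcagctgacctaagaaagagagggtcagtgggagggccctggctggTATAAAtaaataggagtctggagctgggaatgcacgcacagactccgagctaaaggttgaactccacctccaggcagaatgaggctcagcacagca
Thbs4: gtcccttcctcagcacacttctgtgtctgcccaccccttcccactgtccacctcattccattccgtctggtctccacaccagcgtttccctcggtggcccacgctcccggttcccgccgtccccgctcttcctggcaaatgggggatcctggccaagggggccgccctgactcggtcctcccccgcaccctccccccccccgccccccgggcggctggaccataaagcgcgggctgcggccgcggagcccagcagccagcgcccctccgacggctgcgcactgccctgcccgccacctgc
The Cxcl13 window holds TATAAA and the Thbs4 window does not. Searched on both strands, TATAAA occurs in 13.6% of 32851 RefSeq promoter windows of this length. A missing match says only that these letters are not in this window.

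The members were not one population that carries both markers. Of the 331 members, 180 held Thbs4 UMIs and none of Cxcl13, 150 held Cxcl13 UMIs and none of Thbs4, and 1 held both. That cell, from wounded library 3, had 14 UMIs of Cxcl13 and 1 UMI of Thbs4 among 3496 UMIs. Among all 7068 Cthrc1-low fibroblasts, 295 held a Cxcl13 UMI, 665 held a Thbs4 UMI and 5 held both. A Thbs4 UMI was found in 2 of 85 (2.35%), 1 of 117 (0.855%) and 2 of 69 (2.9%) cells with a Cxcl13 UMI in wounded libraries 1 to 3, against 14.1%, 10.6% and 10.3% of the cells without one. The share was lower in the Cxcl13 cells of each wounded library. Its 95% exact binomial interval, which covers counting error only, overlapped that of the other cells in wounded library 3 (0.353% to 10.1% against 8.48% to 12.5%). The intervals did not overlap in wounded libraries 1 and 2. The label of one Cxcl13 and Thbs4 population is therefore not what these barcodes show, and the members are described below as Thbs4-only and Cxcl13-only cells.

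**Figure D1:**
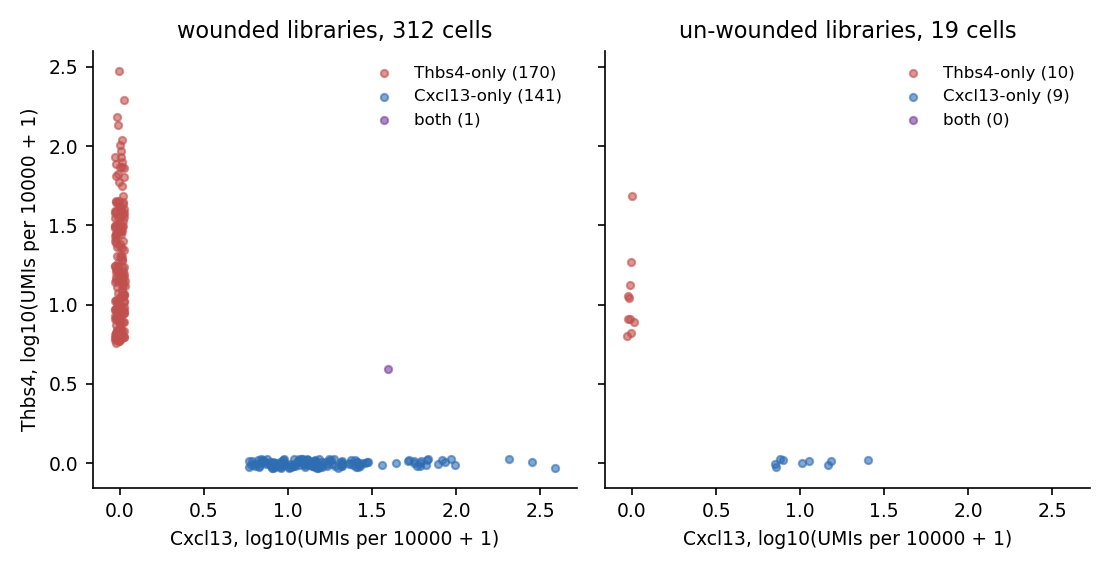
Cxcl13 level (x axis) and Thbs4 level (y axis) of every member as log10 of UMIs per 10000 plus 1, with wounded libraries on the left and un-wounded libraries on the right; each point is 1 cell, moved at random by a small amount so that overlapping points can be seen. The Thbs4-only cells lie on the y axis and the Cxcl13-only cells on the x axis, with 1 cell between them.

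Per wounded library there were 87, 56 and 27 Thbs4-only cells and 45, 62 and 34 Cxcl13-only cells. The un-wounded libraries held 2 and 8 Thbs4-only cells and 1 and 8 Cxcl13-only cells. The median member had 14.1, 14.02 and 10.8 UMIs of the marker pair per 10000 in the wounded libraries and 6.53 and 9.85 in the un-wounded ones. Near the threshold, 20, 11 and 8 members of the wounded libraries lay between 5 and 6 per 10000, and 19, 19 and 3 other fibroblasts lay between 4 and 5. The lowest members stood at 5.01 to 5.67 per 10000 and the highest other cells at 4.67 to 4.99, so the edge of the class is a limit on a continuous range. The marker genes themselves served to choose the cells and were not tested.

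Library totals ran from 33537809 to 59621412 UMIs. Members were deeper than other Cthrc1-low fibroblasts, with a median of 8803, 9198.5 and 11600 UMIs per cell in wounded libraries 1 to 3, against 6226, 6378.5 and 8117.5. Any 2 libraries shared between 24 and 61 barcodes, and no shared barcode was a member in both libraries. Members whose barcode recurred in another library outside the members were not counted. Among the barcodes with the highest doublet scores were 8, 4 and 0 members of the wounded libraries and no member of the un-wounded ones. Some defining genes of other cell types were at 0 UMIs in the members of the wounded libraries: Ms4a1 and Cxcr5 of B cells, Sox10 of Schwann cells, 3 of the 9 muscle genes (Myod1, Pax7 and Myf5) and 3 of the 6 adipocyte genes (Adipoq, Plin1 and Cidec). The summed level of the macrophage list was 103 to 115 CPM in members and 161 to 364 CPM in other Cthrc1-low fibroblasts, where CPM is a gene's UMIs per 1000000 UMIs of that class in a library. The lymphocyte list gave 10.7 to 31.5 CPM and 21.9 to 53.2 CPM, the endothelial list 11 to 25.4 and 8.8 to 42.6, the pericyte list 14.9 to 33.1 and 36.6 to 67.9, and the keratinocyte list 121 to 925 and 136 to 1055. The muscle list gave 68.2 to 115 and 97.97 to 297 CPM, and the list of Schwann and perineurial genes 29.4 to 41.6 and 41.5 to 46.9 CPM, though S100b of that list was higher in members (log2 fold change 1.06 ± 0.30, edgeR adjusted p 0.037). The adipocyte list was higher in the members of each wounded library, at 310 to 498 CPM in members and 186 to 282 CPM in other cells, and its gene Lpl passed the test (1.06 ± 0.17, edgeR adjusted p 0.002). The kinds went opposite ways against other cells, with a median log2 fold change over 3 adipocyte genes of 1.25 in Cxcl13-only and -0.96 in Thbs4-only cells. The dendritic list had 501 to 1473 CPM in members and 569 to 1476 CPM in other cells, and was higher in members in wounded library 3, as the endothelial list was in wounded library 2. The part of other cell types in the results was not tested.

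Members formed a larger share of the fibroblasts in wounded than in un-wounded skin, in each library. They made up 5.76% (95% exact binomial interval 4.84 to 6.79), 6.13% (5.1 to 7.3) and 4.53% (3.49 to 5.76) of the fibroblasts of wounded libraries 1 to 3. In the un-wounded libraries they made up 0.654% (0.135 to 1.9) and 0.774% (0.443 to 1.25); these intervals cover counting error only. The groups did not overlap: the share averaged 5.47% ± 0.840 (SD, n = 3) in wounded and 0.714% ± 0.0855 (SD, n = 2) in un-wounded skin, a difference of 4.76 percentage points. The two-sided exact permutation p was 0.1, the smallest that 3 against 2 libraries can give, so the design cannot reach the 0.05 threshold.

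Both kinds of member showed the same order. Thbs4-only cells were 3.79%, 2.91% and 1.97% of the fibroblasts of wounded libraries and 0.436% and 0.387% of those of un-wounded libraries, a difference of 2.48 points. Cxcl13-only cells were 1.96%, 3.22% and 2.48% in wounded and 0.218% and 0.387% in un-wounded libraries, a difference of 2.25 points. For each kind the exact permutation p was again 0.1. Cthrc1-high fibroblasts, which the choice of members leaves out, took 22.8%, 8.68% and 25.8% of the fibroblasts in wounded and 0% and 0.0484% in un-wounded libraries, so the denominator also changed. Over Cthrc1-low fibroblasts alone the difference in member share was 6.04 points. In both groups the shares were higher when barcodes were thinned to 2000 UMIs before the choice. They were 7.41%, 8.2% and 5.55% in wounded and 2.32% and 2.29% in un-wounded libraries. The means were 7.05% and 2.31%, a difference of 4.74 points, against 5.47% and 0.714% unthinned, so the groups stood closer in proportion. At that depth any UMI of either marker reaches the threshold, which makes the choice looser. Thbs4-only cells then numbered 126, 93 and 43 in wounded and 9 and 40 in un-wounded libraries, against 87, 56, 27, 2 and 8. Cxcl13-only cells numbered 45, 65, 34, 1 and 7, against 45, 62, 34, 1 and 8. The rise thus lay mostly in Thbs4-only cells. Shallower barcodes were left out of that choice, 181 and 74 of them in the un-wounded libraries and 0 in the wounded ones. The wound, the age and any difference in collection cannot be told apart in these labels.

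**Figure D2:**
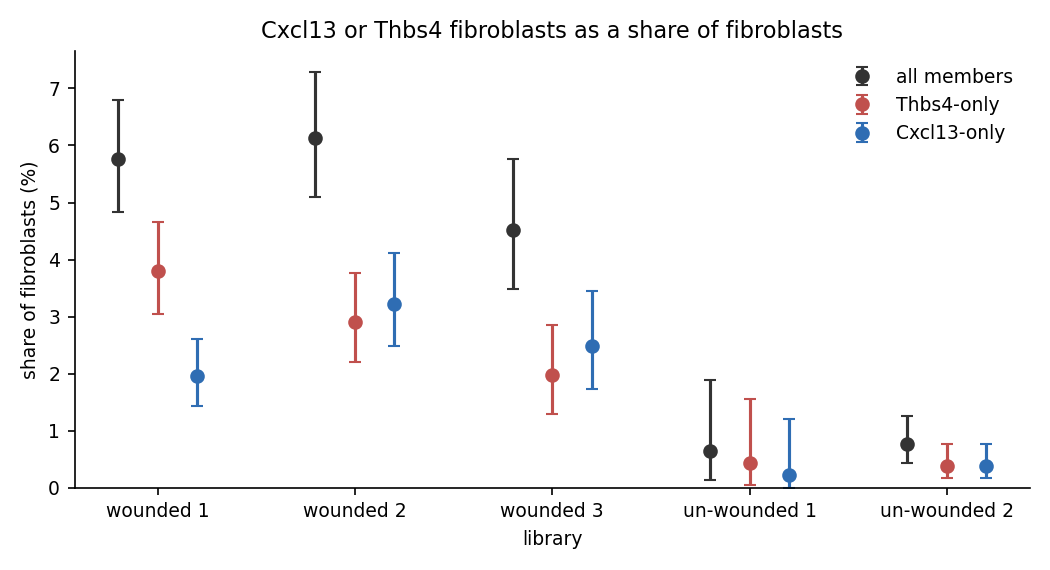
Share of fibroblasts (y axis, %) in each library (x axis) for all members, Thbs4-only and Cxcl13-only cells; points are the share and bars its 95% exact binomial interval. All members take 4.53% to 6.13% of fibroblasts in the wounded libraries, against 0.654% and 0.774% in the un-wounded ones.

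Keratinocytes gave the background of free RNA in the droplets. Of the keratin-high barcodes, which should lack both genes, none reached 5 per 10000 of Cxcl13 in any library, and 1 of 2552 in wounded library 1 did so for Thbs4. With median depths of 6670.5, 6620 and 11218 UMIs in these barcodes and 6332.5, 6490 and 8206.5 UMIs in Cthrc1-low fibroblasts, any UMI was more common: Cxcl13 was seen in 0.823%, 2.01% and 0.99% of these barcodes in the wounded libraries, against 4.8%, 6.66% and 6.79% of Cthrc1-low fibroblasts. Thbs4 was seen in 2.31%, 1.34% and 0.66% of them, against 13.6%, 9.95% and 9.84% of Cthrc1-low fibroblasts. Both genes were thus more often detected in fibroblasts than in keratinocytes of the same library.

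The receptor for Cxcl13 was rare. Cxcr5 was detected in 2, 37 and 15 barcodes of wounded libraries 1 to 3 and in 0 and 1 barcodes of the un-wounded ones, of all kept barcodes.

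The kinds of member differed broadly from each other. Over the 3 wounded libraries edgeR's quasi-likelihood test, with library as a block and Benjamini-Hochberg adjustment, called 455 of 4676 genes tested at an adjusted p under 0.05 (9.73%). Of these, 170 were higher in Thbs4-only cells (3.64%) and 285 lower (6.09%); with plain library sizes the split was 221 higher and 237 lower, with the median of all genes moved to 0.14. Without wounded library 2 the count was 164. Col8a1, Meox1 and Mgp were among the genes highest in Thbs4-only cells, and Akr1c18, Smpd3 and Chrdl1 among those highest in Cxcl13-only cells. A positive log2 fold change means higher in Thbs4-only cells.

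Mgp, the matrix Gla protein that inhibits calcification, stood at 3008, 5065 and 4461 CPM in Thbs4-only cells of wounded libraries 1 to 3, against 87.9, 96.6 and 62.1 CPM in Cxcl13-only cells and 351, 615 and 486 CPM in other Cthrc1-low fibroblasts. The classes did not overlap, and the log2 fold change between the kinds was 5.50 ± 0.20 (SE, edgeR adjusted p 5.74e-05). Cilp, a cartilage and connective tissue matrix protein, had 1917, 2021 and 1458 CPM in Thbs4-only cells, against 105, 43.8 and 18.1 CPM in Cxcl13-only cells and 705, 732 and 491 CPM in other cells (5.02 ± 0.35). Both genes were thus highest in Thbs4-only and lowest in Cxcl13-only cells, with the other fibroblasts between them. Smoc2, a calcium-binding matricellular protein, followed the same order, with 1176, 1305 and 1087 CPM in Thbs4-only, 70.8, 87.5 and 41.4 CPM in Cxcl13-only and 195, 168 and 119 CPM in other cells (4.03 ± 0.19).

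Col8a1, Meox1, Hmcn2 and Fbln7 were higher in Thbs4-only than in Cxcl13-only cells. Col8a1, a short-chain network-forming collagen, had 392, 324 and 425 CPM in Thbs4-only cells, against 0, 5.47 and 0 CPM in Cxcl13-only cells and 12.9, 9.14 and 18.1 CPM in other cells. That is 646 UMIs in Thbs4-only cells against 3 UMIs in Cxcl13-only cells, a 168-fold ratio with a counting interval of 57.3 to 818. Meox1, a homeobox transcription factor, had 305 UMIs in Thbs4-only and 2 UMIs in Cxcl13-only cells, a 119-fold ratio (32.7 to 988). Hmcn2, a hemicentin of the extracellular matrix, had 351, 480 and 240 CPM in Thbs4-only, 17.1, 5.47 and 12.9 CPM in Cxcl13-only and 15.8, 19.1 and 9.17 CPM in other cells (4.82 ± 0.39). In Hmcn2 the Cxcl13-only cells and the other fibroblasts overlapped, so the level was high in Thbs4-only cells alone among these classes. Fbln7, a fibulin, had 276, 210 and 243 CPM in Thbs4-only, 12.2, 1.82 and 0 CPM in Cxcl13-only and 13.5, 6.79 and 16.8 CPM in other cells. Tnc, tenascin C of healing and developing matrix, had 222, 101 and 226 CPM in Thbs4-only cells, 4.88, 0 and 10.3 CPM in Cxcl13-only cells, and 92.1, 101 and 259 CPM in other cells. Tnc was therefore low in Cxcl13-only cells, and Thbs4-only and other cells overlapped. The remaining genes that the naming rule gave as higher in Thbs4-only cells were Adamtsl2, Gfra1, C1qtnf3, Fhl2 and H19.

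**Figure D3:**
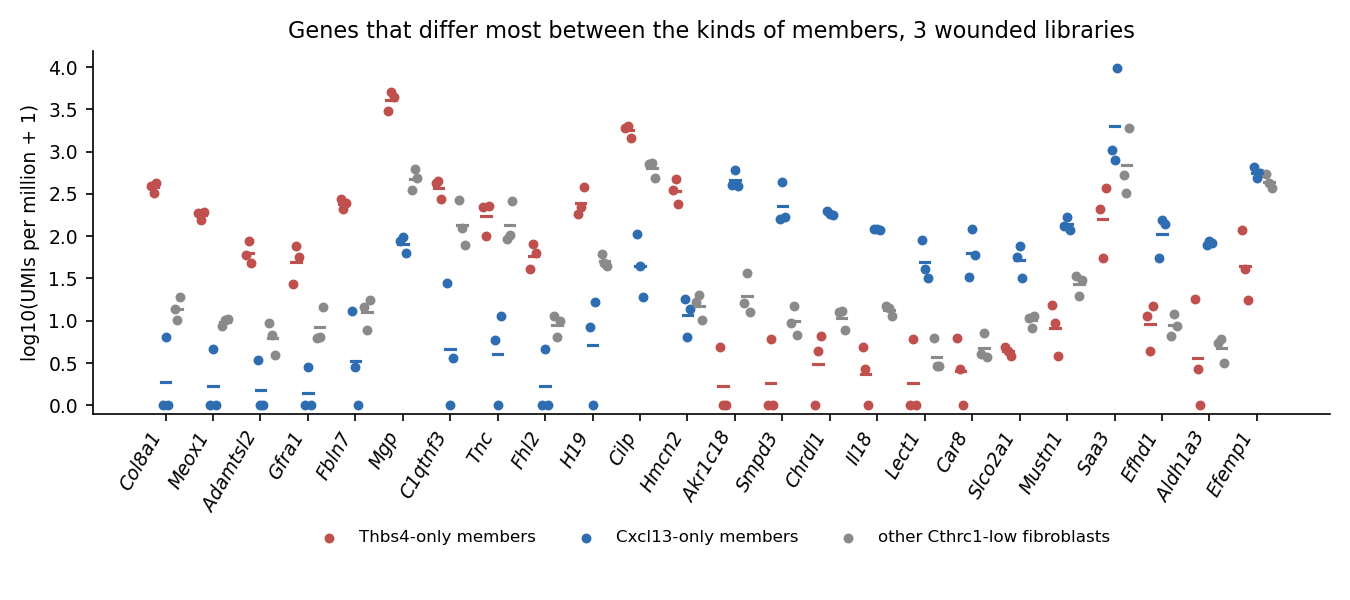
Levels in the 3 wounded libraries (y axis, log10 of CPM plus 1) of the 12 genes highest and the 12 lowest by fold change in Thbs4-only against Cxcl13-only cells (x axis, by gene); points are libraries and bars their mean on the log scale. Col8a1 and Meox1 are at or near 0 in Cxcl13-only cells, and Akr1c18 and Smpd3 in Thbs4-only cells.

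Some of the genes that ran the other way were close to absent in Thbs4-only cells. Akr1c18, a hydroxysteroid dehydrogenase that inactivates progesterone, had 3.91, 0 and 0 CPM in Thbs4-only cells, against 408, 611 and 388 CPM in Cxcl13-only cells and 15.4, 36.1 and 11.6 CPM in other cells. It had 3 UMIs in Thbs4-only and 652 UMIs in Cxcl13-only cells, a 278-fold ratio (94.8 to 1352). Smpd3, a neutral sphingomyelinase, had 3 UMIs in Thbs4-only and 368 UMIs in Cxcl13-only cells, 157-fold (53.3 to 765); it overlaps Prmt7 on the opposite strand, and whether counting used strand is not given in the sources used here. Chrdl1, a secreted BMP antagonist, had 0, 3.36 and 5.59 CPM in Thbs4-only, 200, 182 and 176 CPM in Cxcl13-only and 11.6, 12.1 and 6.71 CPM in other cells. Il18, a proinflammatory cytokine whose gene overlaps Bco2 and Tex12, had 3.91, 1.68 and 0 CPM in Thbs4-only cells, 120, 120 and 119 CPM in Cxcl13-only cells and 14.1, 13.1 and 10.5 CPM in other cells. For each of these genes Cxcl13-only cells stood above both other classes in every wounded library. A UMI of Akr1c18 was found in 1.8% of Thbs4-only and 73.0% of Cxcl13-only cells of the wounded libraries, and one of Col8a1 in 59.4% and 1.4%.

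Other genes lower in Thbs4-only cells included Efemp1 (fibulin 3; log2 fold change -3.53 ± 0.41), Slco2a1 (a prostaglandin transporter; -4.07 ± 0.39) and Efhd1 (-3.68 ± 0.46). Aldh1a3, an enzyme that makes retinoic acid, and Car8 passed the test over the 3 libraries but lost the call without wounded library 2, as did Saa3 and Gfra1. Saa3, an acute-phase protein, had 209, 53.7 and 366 CPM in Thbs4-only, 1037, 802 and 9865 CPM in Cxcl13-only and 533, 321 and 1897 CPM in other cells. The Saa3 values rested on few cells, since the 2 highest cells per library held 75.2% of its UMIs in Thbs4-only and 74.9% in Cxcl13-only cells.

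The 12 fascia genes separated the kinds. In Thbs4-only cells 1161 of 11161 genes were called against other Cthrc1-low fibroblasts (10.4%; 514 higher, 4.61%, and 647 lower, 5.8%). With cells chosen after thinning the count was 736 in the same libraries (373 higher and 363 lower), with 56.7% of the 1161 genes among them, and 393 (228 higher and 165 lower) with un-wounded library 2 added. Against the same cells, 1378 of 11131 genes were called in Cxcl13-only cells (12.4%; 660 higher, 5.93%, and 718 lower, 6.45%); the count was 812 without wounded library 1 and 757 without wounded library 2. The comparisons share their reference cells and are given side by side. For each gene list here and below, the share of all genes called higher or lower in that kind is the background. Of the fascia genes, 3 of 12 rose and 1 fell in Thbs4-only cells (median 0.12, against -0.02 over all genes). In Cxcl13-only cells 11 of 12 rose and none fell (median log2 fold change 2.09, against -0.06 over all genes). Between the kinds directly, 9 of 11 were lower in Thbs4-only cells and none was higher (median -1.45).

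Pi16, a secreted peptidase inhibitor, had 1478, 1154 and 1335 CPM in Thbs4-only cells, 3653, 2336 and 2596 CPM in Cxcl13-only cells and 1092, 819 and 834 CPM in other cells. It rose in both kinds, by a log2 fold change of 0.45 ± 0.12 in Thbs4-only and 1.64 ± 0.14 in Cxcl13-only cells (edgeR adjusted p 0.024 and 6.2e-07). Dpp4, a cell-surface dipeptidase, had 41.7, 53.7 and 22.3 CPM in Thbs4-only cells, 210, 328 and 204 CPM in Cxcl13-only cells and 58.2, 62.9 and 33 CPM in other cells. Its value was -0.47 ± 0.19 in Thbs4-only cells, with an edgeR adjusted p of 0.14, and Dpp4 rose in Cxcl13-only cells (2.29 ± 0.20). Anxa3, an annexin, had 155, 144 and 109 CPM in Thbs4-only, 608, 1329 and 703 CPM in Cxcl13-only and 87.7, 105 and 67.6 CPM in other cells. The Wnt ligand Wnt2 rose in Cxcl13-only cells (3.29 ± 0.25), as did Efhd1 (3.81 ± 0.24). Plac8, a small cysteine-rich protein of the reticular and adventitial list, had 485, 483 and 478 CPM in Thbs4-only, 4122, 2299 and 2550 CPM in Cxcl13-only and 304, 256 and 282 CPM in other cells. Plac8 rose in both kinds, but its list was mixed. Of the 14 genes of that list, 7 rose and 3 fell in Thbs4-only cells (median 0.60). In Cxcl13-only cells 8 rose and 5 fell (median 0.84). Between the kinds 5 were higher and 5 lower in Thbs4-only cells (median -0.32).

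Cells with at least 5 UMIs of Pi16 plus Dpp4 per 10000 were 65.5%, 67.9% and 63.0% of the Thbs4-only cells of wounded libraries 1 to 3, and 75.6%, 85.5% and 82.4% of the Cxcl13-only cells. Among other Cthrc1-low fibroblasts they were 52.3%, 46.6% and 46.0%. The share was higher in both kinds than in other cells in each of the 3 libraries. Seen from the other side, Cxcl13 at 5 per 10000 was found in 34 of 948 (3.59%), 53 of 855 (6.2%) and 28 of 484 (5.79%) Pi16 or Dpp4 fibroblasts of wounded libraries, against 0 of 197, which allows a share of up to 1.52%, and 3 of 979 (0.306%) in un-wounded ones. The Pi16 or Dpp4 fibroblasts as a whole were 53.6%, 48.6% and 47.6% of Cthrc1-low fibroblasts in wounded and 42.9% and 47.4% in un-wounded libraries. Both shares lay higher in each wounded library than in either un-wounded one, and neither difference was tested. For the Pi16 or Dpp4 share, wounded library 3 (47.6%) and un-wounded library 2 (47.4%) were nearly equal.

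Of 11 papillary genes tested, 8 fell and 1 rose in Thbs4-only cells (median -1.26), and 9 fell and none rose in Cxcl13-only cells (median -2.18, also with Ptk7, at 0 UMIs there, set to the bound of 3 UMIs). Crabp1, a retinoic acid binding protein, had 2.61, 3.36 and 41.9 CPM in Thbs4-only cells, 2.44, 0 and 2.59 CPM in Cxcl13-only cells and 224, 68 and 510 CPM in other cells. Trps1, a transcriptional repressor, had 15.6, 10.1 and 5.59 CPM in Thbs4-only, 0, 1.82 and 0 CPM in Cxcl13-only and 42.7, 64.2 and 48.2 CPM in other cells. Neither kind reached the level of the other fibroblasts in any wounded library. Runx1, a transcription factor, was the 1 papillary gene that rose, with a log2 fold change of 0.74 in Thbs4-only cells. The marker list of the dermal papilla and sheath, which also holds Crabp1, was low beside them, with a summed level of 18.7, 13.1 and 22.7 CPM in members and 267, 101 and 563 CPM in other Cthrc1-low fibroblasts of wounded libraries 1 to 3. Of its 4 genes tested, the same 3 (Crabp1, Wif1 and Lepr) fell in each kind, with a median of -2.19 in Thbs4-only and -4.92 in Cxcl13-only cells (-2.78 with Wif1, at 0 UMIs there, set to the bound of 3 UMIs). The part of dermal papilla and sheath cells among the other fibroblasts was not tested.

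**Figure D4:**
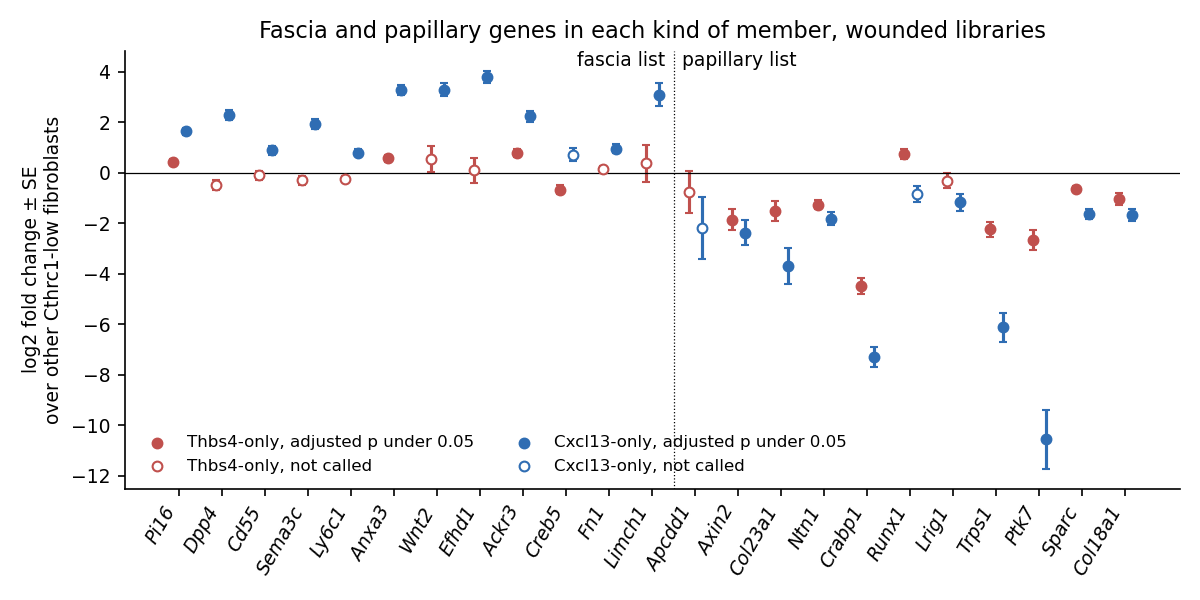
Log2 fold change with its SE (y axis) of fascia genes and papillary genes (x axis) in Thbs4-only and Cxcl13-only cells over other Cthrc1-low fibroblasts, 3 wounded libraries; filled points have an edgeR adjusted p under 0.05. Fascia genes lie mostly near 0 for Thbs4-only and above 0 for Cxcl13-only cells, and papillary genes mostly below 0 for both; Ptk7 is at 0 UMIs in Cxcl13-only cells, so its fitted value depends on the prior count.

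Complement genes were higher in Cxcl13-only cells. Of 11 tested, 3 rose and 1 fell in Thbs4-only cells (median -0.10), while 8 rose and none fell in Cxcl13-only cells (median 1.35). C3 had 658, 643 and 707 CPM in Thbs4-only cells, 2106, 1541 and 3131 CPM in Cxcl13-only cells and 355, 434 and 264 CPM in other cells. The 3 classes did not overlap. C3 rose in both kinds, by 0.87 ± 0.15 in Thbs4-only and 2.66 ± 0.26 in Cxcl13-only cells (edgeR adjusted p 0.0014 and 1.7e-06), and was lower in Thbs4-only than in Cxcl13-only cells (-1.84 ± 0.20, adjusted p 0.002). Over all members against other Cthrc1-low fibroblasts it was 1.92 ± 0.25, and 1.70 with an edgeR adjusted p of 0.00061 in the same 3 libraries when the cells were chosen after thinning. With un-wounded library 2 also in that fit it was 1.26, with an edgeR adjusted p of 0.052. C4b, a component of the classical C3 convertase, had 73, 99 and 92.2 CPM in Thbs4-only, 547, 647 and 621 CPM in Cxcl13-only and 81.2, 112 and 86.4 CPM in other cells. The C4b value was -0.18 ± 0.15 in Thbs4-only cells, and C4b rose in Cxcl13-only cells (2.72 ± 0.17). Cfb, factor B of the alternative pathway, rose in both kinds against other cells (0.72 ± 0.19 in Thbs4-only and 1.51 ± 0.33 in Cxcl13-only cells).

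In cells thinned to 2000 UMIs, C3 was detected in 47.1%, 58.9% and 59.3% of Thbs4-only cells, 93.3%, 93.5% and 100% of Cxcl13-only cells and 30%, 34.2% and 23.6% of other Cthrc1-low fibroblasts of wounded libraries 1 to 3. Plac8 was detected in 31%, 37.5% and 37% of Thbs4-only, 93.3%, 85.5% and 91.2% of Cxcl13-only and 12.5%, 12.3% and 12.9% of other cells. Mgp was detected in 65.5%, 87.5% and 74.1% of Thbs4-only, 13.3%, 14.5% and 11.8% of Cxcl13-only and 13.6%, 13.5% and 14% of other cells. Without thinning, Mgp was detected in 78.2%, 91.1% and 88.9% of Thbs4-only, 31.1%, 30.6% and 20.6% of Cxcl13-only and 21.6%, 24.2% and 24.0% of other cells, and C3 in 72.4%, 82.1% and 81.5% of Thbs4-only, 100%, 98.4% and 100% of Cxcl13-only and 47.3%, 56.2% and 45.5% of other cells. Unthinned Plac8 shares were 42.5%, 57.1% and 66.7% in Thbs4-only, 100%, 88.7% and 97.1% in Cxcl13-only and 17.8%, 22.99% and 25.1% in other cells. No wounded cell was too shallow for the thinning.

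Chemokines and cytokines moved in both directions. Of 22 tested, 3 rose and 8 fell in Thbs4-only cells (median -0.44), and 9 rose and 4 fell in Cxcl13-only cells (median 0.36). Cxcl10, an interferon-induced chemokine for T cells, had 130, 213 and 587 CPM in Thbs4-only cells, 481, 680 and 1316 CPM in Cxcl13-only cells and 94.1, 121 and 166 CPM in other cells. Cxcl14, a chemokine of skin and other epithelia, ran the other way, with 581, 884 and 832 CPM in Thbs4-only, 408, 359 and 240 CPM in Cxcl13-only and 110, 134 and 142 CPM in other cells. Both genes rose in both kinds. Il6 had 92.5, 93.9 and 53.1 CPM in Thbs4-only cells, 244, 458 and 1218 CPM in Cxcl13-only cells and 172, 402 and 302 CPM in other cells, falling in Thbs4-only (-1.83 ± 0.23) and rising in Cxcl13-only cells (0.92 ± 0.27). Ccl8, a monocyte and T cell chemokine, had 71.7, 127 and 201 CPM in Thbs4-only, 193, 150 and 339 CPM in Cxcl13-only and 548, 619 and 1373 CPM in other cells. It fell in both kinds (-2.74 ± 0.16 and -1.85 ± 0.17). Il33, an alarmin, and the B cell survival factor Tnfsf13b rose in Cxcl13-only cells (1.67 ± 0.21 and 2.80 ± 0.46).

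Of 12 genes of the lymphoid stroma list tested, none rose and 4 fell in Thbs4-only cells, and 2 rose (Tnfsf13b and Cxcl12) and 5 fell in Cxcl13-only cells (medians -0.41 in each; -0.21 in Cxcl13-only cells with Il7, at 0 UMIs there, set to the bound of 3 UMIs). Among those that fell was Grem1, a BMP antagonist of lymph node stroma, with 32.6, 3.36 and 0 CPM in Thbs4-only, 7.32, 0 and 0 CPM in Cxcl13-only and 65, 41.3 and 59.8 CPM in other cells. Of the 13 NF-kB response genes none rose and 7 fell in Thbs4-only cells (median -0.76), and 1 rose and 2 fell in Cxcl13-only cells (median -0.39). Of all genes tested, 4.61% rose and 5.8% fell in Thbs4-only cells, and 5.93% rose and 6.45% fell in Cxcl13-only cells.

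Of 13 interferon-response genes, 4 rose and 9 were not called in Thbs4-only cells (median 0.26; 4.61% of all genes rose there), and 9 rose and 4 were not called in Cxcl13-only cells (median 1.48; 5.93% of all genes rose). Between the kinds 3 of 12 were lower in Thbs4-only cells and 9 were not called (median -0.87). Ifi27l2a, an interferon-induced gene, had 1683, 2167 and 1145 CPM in Thbs4-only cells, 4498, 2443 and 2105 CPM in Cxcl13-only cells and 475, 499 and 349 CPM in other cells. Isg15, a ubiquitin-like interferon-induced protein, had 95.2, 144 and 36.3 CPM in Thbs4-only, 510, 319 and 362 CPM in Cxcl13-only and 73.5, 101 and 123 CPM in other cells. Of 10 MHC class I genes tested, none rose and 7 fell in Thbs4-only cells (median -1.02; 5.8% of all genes fell there), and none rose and 1 fell in Cxcl13-only cells (median -0.35; 6.45% of all genes fell). Between the kinds 3 of 9 were lower in Thbs4-only cells and 6 were not called (median -0.83). H2-D1, a class I heavy chain, had 1271, 955 and 480 CPM in Thbs4-only cells, 1923, 924 and 939 CPM in Cxcl13-only cells and 2850, 1819 and 1351 CPM in other cells, and it fell in both (-1.27 ± 0.13 and -0.68 ± 0.15). Psmb9, a subunit of the immunoproteasome, fell in Thbs4-only cells (-1.40 ± 0.22) and had -0.09 ± 0.21 in Cxcl13-only cells.

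**Figure D5:**
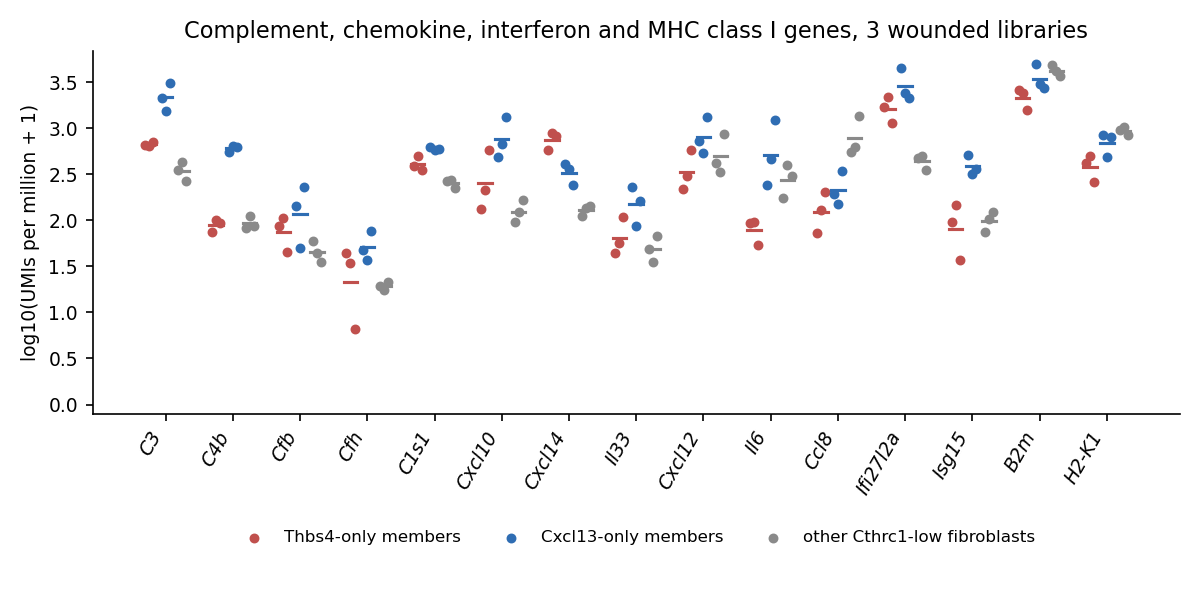
Levels in the 3 wounded libraries (y axis, log10 of CPM plus 1) of complement, chemokine, cytokine, interferon-response and MHC class I genes (x axis) in Thbs4-only, Cxcl13-only and other Cthrc1-low fibroblasts; points are libraries and bars their mean on the log scale. C3 and C4b are highest in Cxcl13-only cells, Cxcl14 in Thbs4-only cells and Ccl8 in other cells.

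Stress genes known to respond to tissue dissociation moved with the kinds. Of 12, 8 were lower in Thbs4-only than in Cxcl13-only cells and none was higher (median -0.94). Against other cells 1 rose and 3 fell in Thbs4-only cells (median -0.26) and 3 rose and none fell in Cxcl13-only cells (median 0.51). Dnajb1, a heat shock cochaperone, had 177, 206 and 740 CPM in Thbs4-only, 703, 1743 and 2317 CPM in Cxcl13-only and 290, 297 and 270 CPM in other cells. The part of these stress genes in the other differences between the kinds was not tested.

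More collagen genes rose in Thbs4-only than in Cxcl13-only cells. Of 11 collagen genes outside the choice of cells, 7 rose and 1 fell in Thbs4-only (median 0.84), and 2 rose and 6 fell in Cxcl13-only cells (median -0.55). Between the kinds 6 of 10 were higher in Thbs4-only cells and none was lower. Col6a2, a chain of the beaded-filament collagen VI, had 1419, 1233 and 1195 CPM in Thbs4-only cells, 454, 224 and 326 CPM in Cxcl13-only cells and 567, 509 and 666 CPM in other cells. Col12a1, a fibril-associated collagen, had 128, 99 and 145 CPM in Thbs4-only, 26.8, 10.9 and 10.3 CPM in Cxcl13-only and 49.9, 40.4 and 106 CPM in other cells. Col14a1, its relative, rose in both kinds, with 478, 671 and 651 CPM in Thbs4-only, 412, 430 and 432 CPM in Cxcl13-only and 112, 99.4 and 86.8 CPM in other cells.

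Small leucine-rich proteoglycans, which bind collagen fibrils, divided in a similar way, with 6 up and 2 down of 10 in Thbs4-only cells (median 0.98) and 1 up and 6 down in Cxcl13-only cells (median -1.06). Aspn (asporin) had 1481, 990 and 1064 CPM in Thbs4-only cells, 229, 100 and 93.1 CPM in Cxcl13-only cells and 575, 355 and 316 CPM in other cells. Bgn (biglycan) had 3515, 3984 and 4894 CPM in Thbs4-only, 1064, 361 and 654 CPM in Cxcl13-only and 2348, 1774 and 2436 CPM in other cells. Dcn (decorin), the most abundant of them, fell in both kinds, with 14491, 12312 and 8776 CPM in Thbs4-only, 10911, 9787 and 9627 CPM in Cxcl13-only and 25518, 22055 and 17500 CPM in other cells.

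Among the other thrombospondins, Thbs3, which like Thbs4 forms pentamers, had 175, 193 and 137 CPM in Thbs4-only cells, 100, 58.3 and 67.2 CPM in Cxcl13-only cells and 57, 36.1 and 30.3 CPM in other cells. It rose in both kinds (1.96 ± 0.17 and 0.87 ± 0.21); Thbs3 overlaps Mtx1 on the opposite strand. Thbs2, a trimer, fell in both (-0.97 ± 0.14 and -0.80 ± 0.18). Tendon genes gave no uniform picture in Thbs4-only cells, where 3 of 8 tested rose and 1 fell (median 0.95). Tnmd, a tendon membrane protein, had 383, 58.7 and 190 CPM in Thbs4-only, 14.6, 9.12 and 5.17 CPM in Cxcl13-only and 225, 134 and 97 CPM in other cells, so that the Thbs4-only and other cells overlapped. Fmod (fibromodulin) had 133, 0 and 187 CPM in Thbs4-only cells and 0 in all Cxcl13-only cells. Tppp3, found in tendon sheath cells, rose in Thbs4-only cells (1.32 ± 0.12) and fell in Cxcl13-only cells (-0.65 ± 0.19).

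Of 18 secreted regulators of Wnt, BMP and IGF signalling, 5 rose and 8 fell in Thbs4-only cells (median -0.03), and of 17 tested in Cxcl13-only cells 5 rose and 9 fell (median -0.95). Between the kinds 4 of 12 were higher and 3 lower in Thbs4-only cells (median 0.16). Sfrp2, a secreted Wnt modulator, had 22.2, 21.8 and 78.2 CPM in Thbs4-only cells, 381, 292 and 393 CPM in Cxcl13-only cells and 82.9, 107 and 120 CPM in other cells, falling in the one kind and rising in the other. Igfbp5, an IGF binding protein, fell in both, with 197, 107 and 30.7 CPM in Thbs4-only, 390, 578 and 409 CPM in Cxcl13-only and 769, 1330 and 660 CPM in other cells. Vegfa, a vascular growth factor and a member of the list of angiogenic growth factors, was lower in Thbs4-only than in Cxcl13-only cells (-2.45 ± 0.33). It rose in Cxcl13-only cells against other fibroblasts (1.66 ± 0.26). The list as a whole did not follow Vegfa. Its median over 17 genes tested was -0.15 in Thbs4-only and -0.43 in Cxcl13-only cells, and -0.19 over 8 genes between the kinds.

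A further group of genes was raised in both kinds against the other fibroblasts. Taken as 1 class, the members differed from other Cthrc1-low fibroblasts in 1501 of 11207 genes tested (13.4%; 721 higher, 6.43%, and 780 lower, 6.96%), and 835 without wounded library 2. Ptgis, prostacyclin synthase, had 93.8, 80.5 and 78.2 CPM in Thbs4-only cells, 97.6, 72.9 and 140 CPM in Cxcl13-only cells and 11.3, 8.8 and 18.9 CPM in other cells. Itih5, an inter-alpha-trypsin inhibitor heavy chain that binds hyaluronan, had 400, 525 and 265 CPM in Thbs4-only, 322, 241 and 215 CPM in Cxcl13-only and 56.2, 54.1 and 40.9 CPM in other cells. In both genes the kinds overlapped, and both kinds stood above the other cells in every library. Mfap5, a microfibril protein, had 2749, 2127 and 2330 CPM in Thbs4-only, 1952, 1437 and 1109 CPM in Cxcl13-only and 625, 352 and 397 CPM in other cells. Islr (meflin) rose in all members by 2.62 ± 0.15; its gene overlaps Islr2 on the same strand. Inmt, a methyltransferase of small amines, rose by 3.02 ± 0.23, with 88.6, 101 and 78.2 CPM in Thbs4-only, 298, 401 and 225 CPM in Cxcl13-only and 21.1, 16.9 and 30.4 CPM in other cells. Cyp26b1, which breaks down retinoic acid, fell in the members (-3.75 ± 0.30).

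Against Cthrc1-high fibroblasts of the same wounds, the members differed in 2390 of 9166 genes tested (26.1%; 1195 higher, 13%, and 1195 lower, 13%). Because Cthrc1 divides these classes, genes that follow it are no independent result, and the values are given as a description of the members. Myoc (myocilin) had 246, 215 and 151 CPM in members and 7.07, 5.56 and 2.03 CPM in Cthrc1-high cells. Acta2, smooth muscle actin of myofibroblasts, had 42.5, 17.5 and 24.1 CPM in members and 571, 403 and 627 CPM in Cthrc1-high cells. Of 14 wound myofibroblast genes 1 was higher and 12 were lower in the members (median -1.89). Of 14 proliferation genes none was higher and 10 were lower (median -1.87).

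Expression in members could not be compared between wounded and un-wounded skin with the minimum of 20 cells a library, since the un-wounded libraries held 3 and 16 members. With a minimum of 10 cells, which admits 1 un-wounded library, edgeR called 0 genes higher and 1 lower in wounded members of 8341 tested, and 843 at an unadjusted p under 0.05. A difference in the wound effect between members and other Cthrc1-low fibroblasts was called for 0 genes upward and 4 downward of 11047. With cells chosen after thinning, which also leaves 1 un-wounded library, 73 genes were higher and 41 lower in wounded members of 8827. In both fits the lone un-wounded library is assumed to vary like the wounded ones. C3, as a value with no test, was at 0 and 332 CPM in the members of the un-wounded libraries, against 1162, 1073 and 1962 CPM in those of the wounded libraries. The 0 came from 3 members with 11102 UMIs in all, too few to show a low level.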

How the data were processed

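UMI counts per gene and barcode were deposited by the authors for 5 10x libraries, made with Cell Ranger 1.3.1 on mm10 per the submitters' processing notes; the annotation and the barcode filter are not given in the sources used here. Raw counts were summed per library and class for the 3 wounded libraries (at least 20 cells a class) and tested with edgeR 4.0.16 (filterByExpr, TMM, quasi-likelihood, library as a block, Benjamini-Hochberg over all genes tested); the 9 genes of the selection rule were left out. DESeq2 1.42.0 was an alternative. Of the steps, only the count-test fits were tested on simulated data. Shares were compared by an exact permutation test over 10 assignments. No doublets were removed; removing the highest Scrublet scores (scanpy 1.11.5), 0.8% per 1000 barcodes, was an alternative. Named genes had an adjusted p under 0.05, a log2 fold change of at least 1 in size, at least 50 CPM in the higher class and 1 direction in every library, the 12 largest each way, beside the 3 most abundant members of each list, C3, and list members chosen after their values were seen. The members, the lists and the split into kinds were chosen with earlier results of these data known; the comparisons of each kind with other cells and with Cthrc1-high cells were added after seeing the data. Gene positions matched 98.7% of 27998 identifiers.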

Additional observations from a re-analysis of the deposited data

Results flagged for a closer look

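Thbs4 also reached 5 UMIs per 10000 in Cthrc1-high fibroblasts, which the choice of members leaves out: in 11.5% (60 of 523), 7.19% (12 of 167) and 5.08% (18 of 354) of those of wounded libraries 1 to 3. The un-wounded libraries held 0 and 1 Cthrc1-high cells, so no level can be set beside it there. Cxcl13 reached that level in 1.53% (8 of 523) of the Cthrc1-high fibroblasts of wounded library 1. Among barcodes not called fibroblasts, Cxcl13 reached it in 0.227% (6 of 2642) in wounded library 2, against 0 of 4805 and 1 of 3308 (0.0302%) in the un-wounded libraries. These signals lie in cells outside the comparisons, and were listed for that reason.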

How the results depend on the processing

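The wounded minus un-wounded difference in member share stayed above 0 in every alternative, from 1.77 points of kept barcodes to 6.04 points of Cthrc1-low fibroblasts. Without cells of mixed identity it was 4.31 points. There the un-wounded libraries kept only 2 and 281 fibroblasts, with 0 and 1 members, so that value says little. Leaving out libraries gave a difference of 4.43 to 5.23 points. With the replicate block over same-numbered pairs it was 5.23; the samples share only a number. The count tests compare classes within each library, with library as the block. DESeq2 called 974 genes in members against other Cthrc1-low fibroblasts, 279 between the kinds, 891 in Cxcl13-only and 740 in Thbs4-only cells against other cells, and 1381 against Cthrc1-high cells. Choosing cells after thinning gave 836 genes for members and 393 for Thbs4-only cells against other cells in fits that also took in un-wounded library 2; with the wounded libraries alone, an alternative added after seeing the data, the counts were 1190 and 736. Between the kinds there were 976 calls with no filter on low counts and 170 with a threshold of 10 per 10000, where wounded library 3 fell under 20 cells a kind and was left out. Leaving out libraries gave 835 to 1827 calls for members, 164 to 536 between the kinds, 757 to 1307 for Cxcl13-only and 861 to 1261 for Thbs4-only cells. Signs turned for Igfbp2 after thinning (0.083; -0.13 with the wounded libraries alone), Timp1 when libraries were left out (-0.65 to 0.39), and, against all other fibroblasts, which adds Cthrc1-high cells by construction, Postn (-0.16), Cxcl1 (-1.27), Gapdh (-0.49) and Ccnb2 (-1.02). Elsewhere the cause was not tested. Of the alternatives for genes named by rule, 306 of 311 kept their call between the kinds and 382 of 384 for all members. Against other cells, 333 of 336 kept it for Thbs4-only and 312 of 312 for Cxcl13-only cells. Fam180a, Cyp26b1 and Ctla2a lost it in Thbs4-only cells chosen after thinning, in the fit with un-wounded library 2. Requiring at least 500 genes, or at least 2 UMIs of the marker pair, left the tested cells of the wounded libraries unchanged. Those alternatives are in these totals and could not change any call, of named or of other genes. Of the alternatives for other genes, 39 of 778 lost a call between the kinds (15 of 60 genes), and for all members 58 of 992 lost one and 5 changed sign (23 of 62 genes lost a call). The other genes include some not called in the main fit, which had no call to lose. These counts are therefore not a rate of lost calls. Removing cells of mixed identity left under 20 members a library, so its count tests were not run.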
